A study of Mus musculus with 3 samples.

Results

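The T cell and intraepithelial lymphocyte genes are a set of 39 genes read in follicle-associated epithelium, the epithelial sheet that covers lymphoid follicles of the intestinal wall, such as those of Peyer's patches. They were chosen by name, and each was read from the probe set of its own symbol with the highest mean over the 3 arrays. Of the 39 genes, 38 had such a probe set, of 18193 genes so measured on the array, and Lck was not analysed here. Untreated C57BL/6 mice gave the tissue, which was taken from the small intestine. The RBP-J depleted group, with 2 arrays, carried floxed Rbpj alleles with Cre driven from the Villin promoter, which acts in intestinal epithelium and not in lymphocytes. The wild type group had 1 array and served as the only comparison. Age and the number of animals behind each array were not given in the sources used here, so the spread between the depleted arrays may be technical. The question was which of these genes differed in the tissue when RBP-J was depleted from its epithelium.

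Notch receptors change transcription through RBP-J, which binds DNA. The gut epithelium is populated by intraepithelial lymphocytes, which are mostly CD8-bearing T cells that stay in the tissue, hold granzymes and perforin ready, and bind epithelial E-cadherin through the integrin that contains the Itgae product. The epithelium over a follicle also lies directly above B cells and T helper cells, and lymphocytes sit in pockets of its M cells. Bulk RNA of such a sheet contains all of these, and fewer cells of a type and less RNA per cell cannot be told apart.

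Intensities are given as multiples of the array's own median over all probe sets, and differences are on the log2(value + 0.248) scale, depleted minus wild type. Over the 11885 genes tested, that difference had a median of -0.003 in the first depleted array. The second was shifted as a whole, with a median of 0.22, and this shift has not been subtracted from the differences given for it. The brightest of 3 probe sets of Rbpj read 2.72 and 5.74 in the depleted arrays and 7.15 in wild type, and the difference was not called (limma adjusted p = 0.9997). The others read 4.14 and 4.92 against 5.37, and 2.30 and 4.21 against 3.79, so 1 of them was above wild type in the second depleted array. Where its probe sets lie relative to the floxed part of the gene was not given. The ratio of 3' to 5' control probe sets of Gapdh, a sign of RNA quality, was 2.28 and 1.54 in the depleted arrays and 1.83 in wild type. The depleted arrays read 42.8 and 43.4 for Xist, against 0.297 in wild type, so sex and genotype cannot be told apart. The epithelial marker Epcam read 129 and 153 in the depleted arrays and 109 in wild type. Of the lymphocyte genes, all 6 receptor and coreceptor genes passed the intensity filter, at a mean of at least 0.598.

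In the depleted arrays, most genes of T cells and intraepithelial lymphocytes were measured close to wild type, in about the same share as all genes tested. Of the 29 members that passed the intensity filter, the first depleted array held 21 within 0.5 of it on the log2 scale (72.4%) and the second held 20 (69.0%), beside 71.8% and 68.8% of all genes tested. None of the 29 was called by limma with an intensity trend and Benjamini-Hochberg adjustment over all genes, against 0.0841% of all genes tested. At an unadjusted p under 0.05 there was 1 member, Cd96, where the share over all genes was 2.27%. Cd96 was also the 1 member at least 2-fold higher than wild type in both depleted arrays, a count that 0.841% of all genes reached, and 0 members were at least 2-fold lower in both, against 0.488% of all genes. Cd6, at a mean of 0.604 over the arrays, lay just inside the filter, and Skap1, at 0.568, and Cd28, at 0.566, just outside.

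For the 29 tested members, the first depleted array gave a median log2 difference of -0.03, and the second one of 0.36, beside the medians of -0.003 and 0.22 over all genes tested. In the first array 11 of the 29 were higher than wild type, where 49.8% of all genes were. In the second 25 of the 29 were, where 69.7% of all genes were. Both depleted arrays were above wild type for 11 members and below it for 4, beside 39% and 19.5% of all genes. The remaining 14 lay on opposite sides of wild type, beside 41.5% of all genes, and in each of these 14 the first depleted array was the lower. Over the genes of that kind as a whole, the first depleted array was the lower in 74.0%. With no filter the 38 members gave 14 higher in both, 6 lower in both and 18 on opposite sides, beside 37.3%, 22.9% and 39.8% of the 18193 genes.

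**Figure D1:**
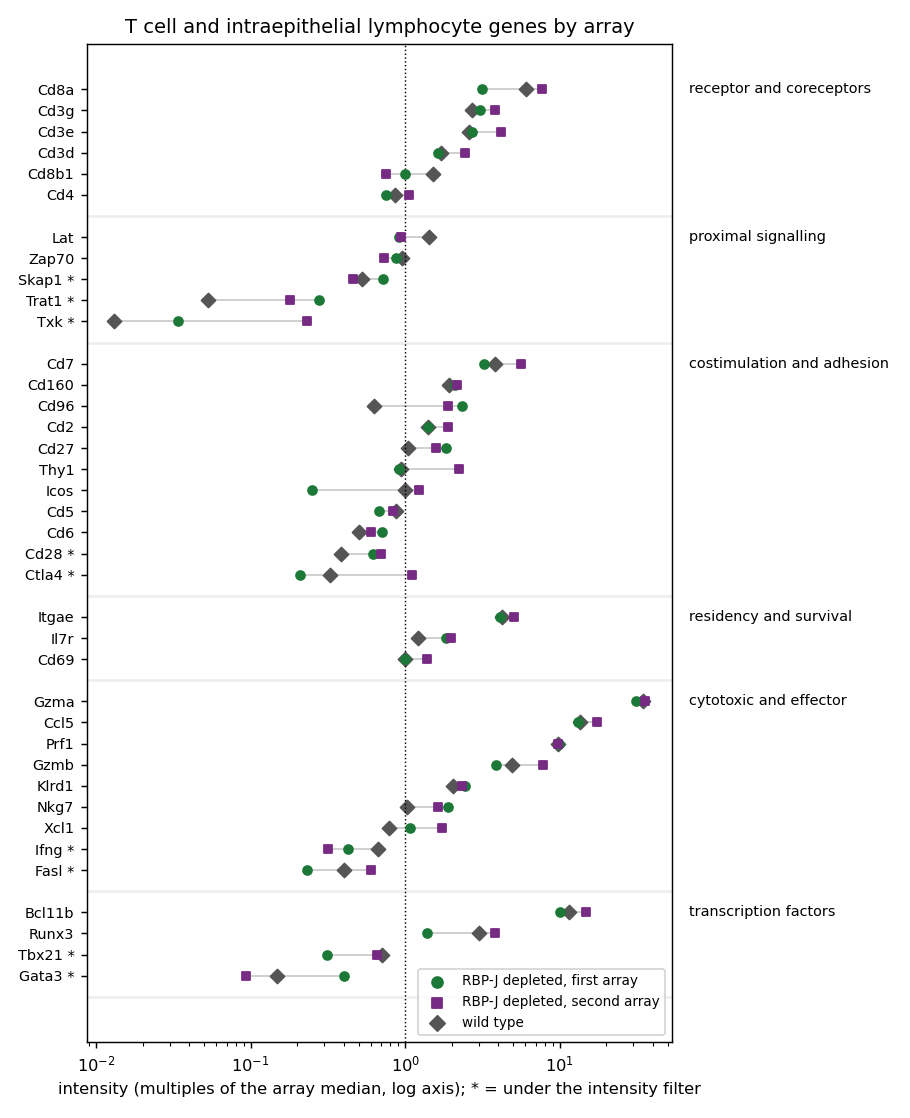
Intensity of each member in each array, in multiples of the array median on a log axis, grouped by role. Circles and squares are the first and second RBP-J depleted arrays and diamonds the wild type array; genes marked with an asterisk were under the intensity filter. Gzma, Prf1 and Ccl5 read close together in all 3 arrays, while Cd96 was low in wild type and Icos low in the first depleted array.

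The promoters of 3 members are shown because these genes span the range of the results: Cd96, with the widest difference, Prf1, among the members with the narrowest, and Cd3g, of the receptor itself. Each runs 5' to 3' from 250 bases before to 50 bases after the annotated start, taken from RefSeq on GRCm38.p6, and capitals mark TGGGAA, the core letters bound by RBP-J, and TGTGGT, the core letters bound by RUNX factors, on either strand. The windows are chr16:46120199-46120498 (minus strand) for Cd96, chr10:61297586-61297885 (plus strand) for Prf1 and chr9:44980382-44980681 (minus strand) for Cd3g.
Cd96: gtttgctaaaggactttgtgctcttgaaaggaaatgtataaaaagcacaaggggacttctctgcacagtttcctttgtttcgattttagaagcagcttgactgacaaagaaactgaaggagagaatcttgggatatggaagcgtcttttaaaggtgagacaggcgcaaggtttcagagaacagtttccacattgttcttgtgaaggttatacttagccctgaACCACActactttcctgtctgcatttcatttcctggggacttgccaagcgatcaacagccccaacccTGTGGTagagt
Prf1: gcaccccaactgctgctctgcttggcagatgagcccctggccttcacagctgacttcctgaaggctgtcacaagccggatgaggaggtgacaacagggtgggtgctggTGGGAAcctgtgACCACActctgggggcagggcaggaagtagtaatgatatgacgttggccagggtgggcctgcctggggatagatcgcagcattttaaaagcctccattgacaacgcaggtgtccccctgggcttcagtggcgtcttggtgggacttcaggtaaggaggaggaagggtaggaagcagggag
Cd3g: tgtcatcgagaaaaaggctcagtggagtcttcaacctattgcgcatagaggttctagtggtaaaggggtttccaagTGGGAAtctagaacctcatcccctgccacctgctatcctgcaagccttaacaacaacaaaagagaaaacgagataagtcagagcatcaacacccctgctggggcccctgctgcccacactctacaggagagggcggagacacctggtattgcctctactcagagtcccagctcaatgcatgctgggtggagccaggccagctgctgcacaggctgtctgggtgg
Cd96 holds TGTGGT on both strands and no TGGGAA, Prf1 holds 1 of each, and Cd3g holds TGGGAA alone. RefSeq windows were matched for 26 of the 39 genes, some with several starts. TGGGAA was found in 12 of these 32 windows (37.5%), beside 25.6% of all 32851 promoters of the same length. TGTGGT was found in 15 of the 32 (46.9%), beside 16.8% of all promoters. The motifs share no overlapping position in the windows shown. These letters are a description of the sequence, and none was shown here to be bound.

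The receptor genes encode the CD3 chains, which carry the signal of the T cell receptor, and the coreceptors CD4 and CD8, which bind MHC class II and class I. Cd3e read 2.69 and 4.15 in the depleted arrays and 2.59 in wild type. For Cd3g the depleted arrays read 3.04 and 3.81, against 2.72 in wild type. Cd3d gave 1.63 and 2.45 in the depleted arrays and 1.71 in wild type. All 3 CD3 genes therefore lay within 0.15 of wild type on the log2 scale in the first depleted array, and were higher in the second by 0.63, 0.45 and 0.46. These genes are immediate neighbours on chromosome 9. The mean log2 difference was 0.34 for Cd3e (SE 0.51), 0.30 for Cd3g (SE 0.51) and 0.20 for Cd3d (SE 0.54). Each was smaller than its SE and each was at a limma adjusted p = 0.9997. Here and below, an SE comes almost wholly from the variance over all genes at that intensity, not from the spread of the gene itself.

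Among the coreceptors, Cd4 read 0.756 and 1.05 in the depleted arrays and 0.861 in wild type, with wild type between them. A dimmer probe set of Cd4, under the filter, was lower in both depleted arrays, at 0.438 and 0.320 against 0.727. Cd8b1, for the beta chain of CD8 that is carried by conventional CD8 T cells, was below wild type in both, at 0.997 and 0.747 against 1.505. Its mean log2 difference of -0.66 (SE 0.59) was not called (limma adjusted p = 0.9997). Cd8a, for the alpha chain that intraepithelial lymphocytes also use as a homodimer, is the neighbour of Cd8b1 on chromosome 6, and read 3.12 and 7.70 in the depleted arrays and 6.08 in wild type.

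The probe sets of Cd8a did not go the same way. The brightest gave log2 differences of -0.91 and 0.33 in the first and second depleted arrays. The next, nearly as bright, read 5.64 and 6.28 in the depleted arrays and 4.21 in wild type, differences of 0.40 and 0.55. The low value of Cd8a in the first depleted array thus rests on 1 of its 5 probe sets over the filter. The other 3 lay between -0.06 and 0.19 in that array.

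The same was seen more widely. Of 7 members with more than 1 probe set over the filter, 2 had all of them on the same side of wild type in each depleted array. These were Icos and Zap70. In Runx3, the dimmer probe set turned both signs, with 0.37 and -0.12 against -0.99 and 0.33 for the brighter. The brighter probe set of Itgae gave 0.26 in the second array and the dimmer -0.60. The 4 probe sets of Bcl11b ran from -0.42 to 0.29 in the first depleted array and from -0.53 to 0.39 in the second. The 4 of Cd160 ran from -0.83 to 0.37 and from -0.29 to 0.30.

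**Figure D2:**
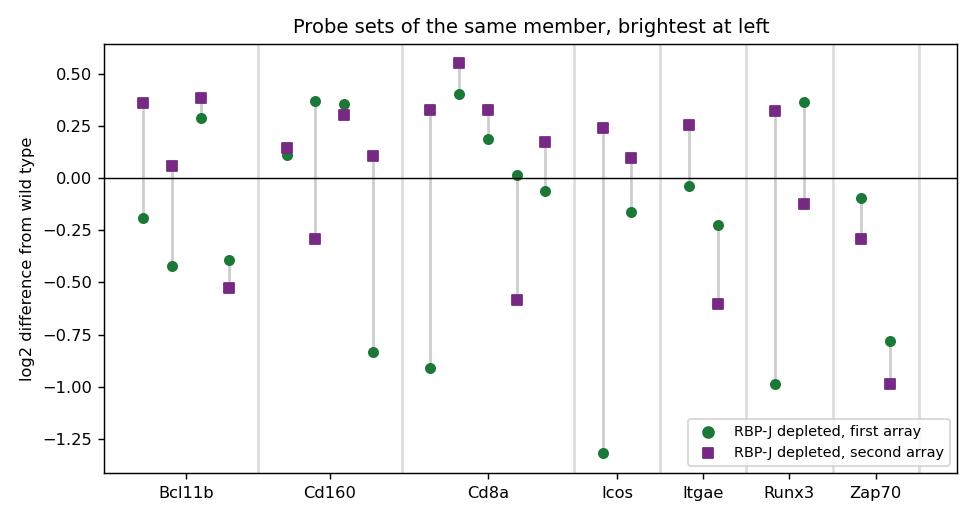
Log2 difference from wild type for every probe set over the intensity filter of the 7 members that have more than 1, the brightest probe set of each gene at the left. Circles are the first and squares the second RBP-J depleted array. Probe sets of Cd8a, Bcl11b, Cd160, Itgae and Runx3 fall on both sides of 0 in at least 1 array, and those of Icos and Zap70 do not.

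Signalling genes directly below the receptor were dim. Zap70, the kinase recruited to the phosphorylated CD3 chains, read 0.870 and 0.729 in the depleted arrays and 0.947 in wild type. Lat, the membrane adaptor that Zap70 phosphorylates, read 0.908 and 0.945 against 1.43. Both were below wild type in both arrays, by mean log2 differences of -0.19 (SE 0.61) and -0.51 (SE 0.58), and neither was called (limma adjusted p = 0.9997). Skap1, Trat1 and Txk, an adaptor, a receptor-associated protein and a Tec family kinase, were under the filter, with no array above 0.716.

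Other genes of T cell receptor signalling did not move together. Of 18 listed, 9 were tested and 0 were called. They had medians of -0.05 and 0.08, with 2 higher in both depleted arrays, 2 lower in both and 5 on opposite sides. The shares over all genes tested were 39%, 19.5% and 41.5%. Fyn, a Src family kinase that acts beside Lck, read 1.49 and 1.25 in the depleted arrays and 2.37 in wild type. Cd247, for the zeta chain of the receptor, was also lower in both, at 4.29 and 7.10 against 7.28. Lcp2, for the adaptor SLP-76, was higher in both, at 0.701 and 0.934 against 0.473.

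Costimulatory and adhesion receptors held the widest differences of the set. Cd96, a receptor of T and NK cells that binds the nectin-like protein CD155, read 2.33 and 1.88 in the depleted arrays and 0.625 in wild type. Both depleted values lay above the array median and the wild type value below it. The log2 differences were 1.56 and 1.29, with a mean of 1.42 (SE 0.56, limma adjusted p = 0.9997). Only 1 probe set measures Cd96, and the size of the difference depends on the pseudocount: with a pseudocount of 1 it was 0.93, and the gene was no longer 2-fold higher in both arrays.

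Cd27, a TNF receptor family member that sustains T cells, read 1.84 and 1.57 in the depleted arrays and 1.04 in wild type. Cd6, a scavenger receptor family regulator of T cell adhesion, read 0.712 and 0.598 against 0.501. Cd160, an activating receptor of intraepithelial lymphocytes, read 2.11 and 2.16 against 1.93. These 3 were above wild type in both arrays, at mean log2 differences of 0.60 (SE 0.56), 0.27 (SE 0.64) and 0.13 (SE 0.53), and none was called. Cd5, the relative and neighbour of Cd6 on chromosome 19, was below wild type in both, at 0.677 and 0.833 against 0.876.

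Icos and Thy1 differed most between the depleted arrays in this group. Icos, a costimulator of follicular helper and regulatory T cells, read 0.250 in the first depleted array, 1.22 in the second and 0.996 in wild type, and its dimmer probe set gave a log2 difference of -0.16 where this one gave -1.32. Thy1, a surface glycoprotein of T cells, read 0.917 and 2.23 in the depleted arrays and 0.943 in wild type. Each stood apart in a single depleted array: Icos was low in the first, and Thy1 was high in the second. Cd2, an adhesion receptor, and Cd7, an early T and NK cell antigen, had wild type between the depleted arrays, at 1.41 and 1.91 against 1.41, and at 3.24 and 5.63 against 3.80.

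Cd28, Ctla4 and Icos lie next to each other on chromosome 1. Cd28, the main costimulatory receptor, and Ctla4, its inhibitory counterpart, were under the filter. Cd28 read 0.615 and 0.697 in the depleted arrays and 0.385 in wild type, and Ctla4 read 0.209 and 1.10 against 0.326. The 3 neighbours did not share a pattern over the arrays, since Cd28 was higher in both depleted arrays and the other genes were on opposite sides of wild type.

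**Figure D3:**
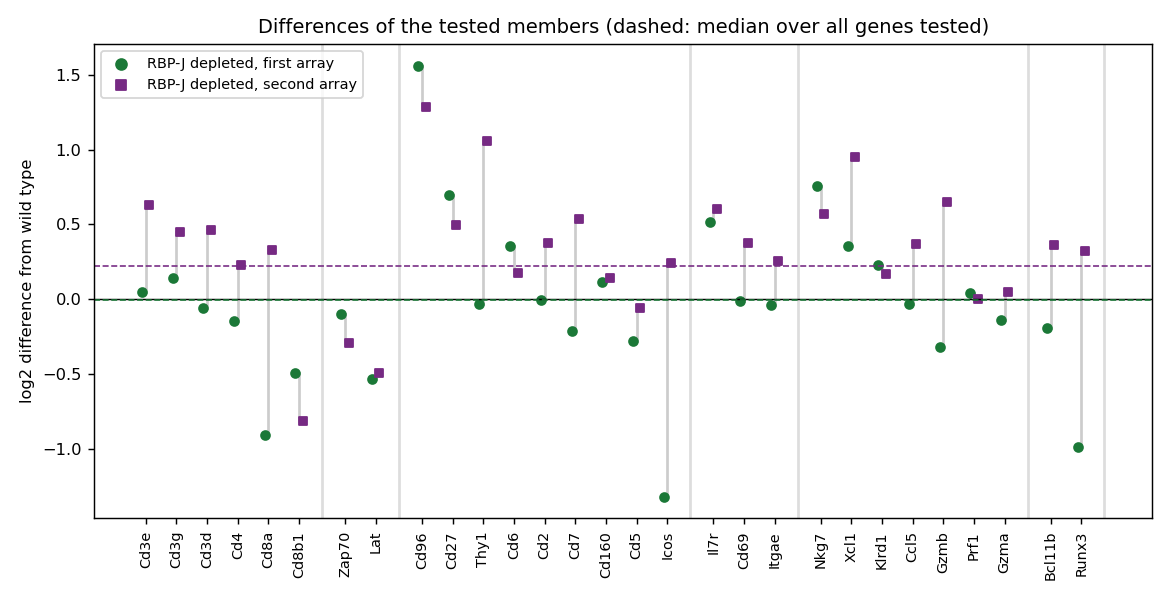
Log2 difference from wild type of the 29 tested members in the first (circles) and second (squares) RBP-J depleted array, grouped by role from receptor genes at the left to transcription factors at the right. Dashed lines are the medians over all genes tested, -0.003 and 0.22. Cd96 is the 1 gene more than 1 above wild type in both arrays.

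Genes of tissue residency and survival differed between the depleted arrays in how far they lay from wild type: Itgae and Cd69 were within 0.04 of it on the log2 scale in the first and above it in the second. Itgae, for the CD103 integrin chain that holds intraepithelial lymphocytes to E-cadherin, read 4.11 and 5.09 in the depleted arrays and 4.23 in wild type. Cd69, which keeps lymphocytes in tissue, read 0.995 and 1.38 against 1.003. Il7r, for the receptor of the survival cytokine IL-7, was higher in both, at 1.84 and 1.97 against 1.21, a mean log2 difference of 0.56 (SE 0.55, limma adjusted p = 0.9997). A dim probe set of Il7r, under the filter, gave -0.86 and 0.31.

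Of the genes of cytotoxic granules, Gzma and Prf1 differed little between the arrays. Gzma, for granzyme A, a protease of cytotoxic granules, read 31.2 and 35.6 in the depleted arrays and 34.4 in wild type, a mean log2 difference of -0.05 (SE 0.42). Prf1, for perforin, which opens the target membrane to granzymes, read 9.96 and 9.70 against 9.68, a mean log2 difference of 0.02 (SE 0.47). Wild type lay within or next to the depleted values for both genes. Ccl5, a chemokine stored by resident CD8 T cells, read 13.2 and 17.5 against 13.5.

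Gzmb, for granzyme B, varied more, at 3.88 and 7.82 in the depleted arrays and 4.91 in wild type, and wild type lay between them. Nkg7, a granule membrane protein, read 1.89 and 1.63 in the depleted arrays and 1.02 in wild type. Xcl1, a chemokine that draws cross-presenting dendritic cells, read 1.07 and 1.74 against 0.781. Nkg7 and Xcl1 were above wild type in both arrays, each with a mean log2 difference close to 0.66 (0.66 with SE 0.56, and 0.65 with SE 0.58) that was not called (limma adjusted p = 0.9997). Klrd1, for the CD94 chain of NKG2 receptors, read 2.46 and 2.34 against 2.05. Fasl and Ifng, for Fas ligand and interferon gamma, were under the filter. Ifng was lower in both, at 0.426 and 0.318 against 0.670, and Fasl read 0.230 and 0.599 against 0.403. A dimmer probe set of Fasl was higher in both, at 0.379 and 0.533 against 0.02.

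Among the transcription factors, Bcl11b, which fixes T cell identity, read 10.0 and 14.8 in the depleted arrays and 11.5 in wild type. Runx3, which silences Cd4 in CD8 T cells and is also expressed by other cells, read 1.39 and 3.82 against 3.0. Wild type lay between the depleted arrays for both, and the 2 probe sets of Runx3 disagreed as given above. Tbx21, for the T-bet factor of type 1 lymphocytes, and Gata3, for the type 2 factor, were under the filter. Tbx21 read 0.310 and 0.658 in the depleted arrays and 0.708 in wild type, and Gata3 0.401 and 0.094 against 0.149.

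Genes of other lymphocyte states gave 0 calls in limma. Among the T cell lists 1 gene, Ccr7, was at an unadjusted p under 0.05, where the share over all genes was 2.27%. Naive and recirculating T cell genes had medians of -0.29 and 0.22 over 7 tested genes. Ccr7, which guides naive T cells to lymphoid tissue, read 0.203 and 1.64 in the depleted arrays and 0.085 in wild type. The first depleted value and the wild type value are both below the pseudocount, so the size of that difference depends on it. Ccr7 passed the filter, at a mean of 0.643, only through its high value in the second depleted array. Its p rests on that same value and is no separate support for a difference. Klf2, which maintains recirculation, read 1.25 and 1.19 against 1.62, and Satb1, a chromatin organiser, 1.12 and 1.15 against 0.834.

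Follicular helper and regulatory T cell genes had medians of 0.07 and 0.26 over 7 tested genes. Cxcr5, which brings B cells and helper T cells to follicles, read 0.124 and 0.648 in the depleted arrays and 1.07 in wild type. Its mean of 0.613 lay just inside the filter, and its first depleted value is below the pseudocount. Cxcr5 is also counted among the B cell markers below. Tnfrsf18, for the GITR receptor, read 2.99 and 3.35 against 2.11, and Tnfrsf4, for OX40, 2.30 and 2.50 against 2.04. Foxp3, Il21 and Pdcd1 were under the filter.

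Gut homing and resident lymphocyte genes had medians of -0.35 and 0.17 over 8 tested genes. Cxcr6, a receptor of resident T cells, was lower in both depleted arrays, at 0.618 and 0.839 against 1.69 in wild type, with a mean log2 difference that was not called. Itga4, an integrin chain of gut homing lymphocytes, was higher in both, at 10.5 and 8.35 against 6.75. Of 12 NK and innate lymphocyte genes 3 were tested, Tyrobp, Fcer1g and Id2. Each was lower in both depleted arrays, where 19.5% of all genes were. In the second array their log2 differences ran only from -0.14 to -0.03. Tyrobp, an adaptor that NK and myeloid cells share, read 8.64 and 11.0 against 12.1. The NK genes Klrk1, Ncr1, Klre1 and Eomes were under the filter, with no array above 0.790.

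Epithelial genes that lymphocytes depend on were also read. Of 13 listed, 10 were tested and 0 were called. In both depleted arrays 7 were higher and 2 lower, beside 39% and 19.5% of all genes tested. Of the 8 epithelial markers, 7 were likewise higher in both depleted arrays. Cdh1 is counted in each of these lists. Il15ra, which presents the intraepithelial lymphocyte cytokine IL-15, read 3.38 and 2.89 in the depleted arrays and 5.84 in wild type. Cd1d1, which presents lipids to T cells, read 2.15 and 1.41 against 0.856, and Tnfrsf14, for the HVEM ligand of CD160, 3.01 and 3.18 against 1.98. Cdh1, for E-cadherin, the partner of the Itgae integrin, read 81.5 and 81.2 against 65.6, higher in both by 0.31.

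The medians of the pan-leukocyte and B cell lists lay further apart between the depleted arrays than the median of the T cell genes. Pan-leukocyte genes, among them Ptprc for CD45, had a median log2 difference of -0.59 in the first depleted array, with 0 of 8 above wild type, and of 0.51 in the second, with 7 of 8. B cell markers had medians of -1.15 and -0.05, with 1 and 5 of 11 above wild type. In both depleted arrays 6 were lower and 1 was higher, beside 19.5% and 39% of all genes. Among the lower were Cr2, at 1.04 and 0.949 against 2.01, and Ms4a1, at 4.12 and 6.73 against 11.1. Cd22 was also lower, at 1.635 and 2.533 against 4.108, and no B cell marker was called. The tested members stood at -0.03 and 0.36. Macrophage and dendritic cell markers were at -0.10 and 0.54, and epithelial markers at 0.23 and 0.31, with 7 of 8 above wild type in each array. Whether these medians differ from each other was not tested.

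The gap between the depleted arrays was also taken gene by gene. The second minus the first was 0.30 on the log2 scale in the median of the tested members, 1.07 for pan-leukocyte genes, 0.89 for B cell markers and 0.22 over all genes tested. Of the 29 members, 4 were at least 2-fold apart between the depleted arrays, where 9.06% of all genes were. These 4 were Cd8a, Icos, Thy1 and Runx3. For Cd8a, Icos and Runx3 the gap depends on the probe set taken. Thy1 has only 1 probe set, so this could not be examined for it. The next brightest gave less than 2-fold gaps, with differences of 0.40 and 0.55 for Cd8a, -0.16 and 0.10 for Icos, and 0.37 and -0.12 for Runx3. The second depleted array was above the first in 21 of 29 members, where 66.9% of all genes were.

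Summed over the genes with a probe set, the members read 113 and 147 in the depleted arrays and 121 in wild type. The sums were 29.0 and 71.3 against 58.4 for B cell markers, 119 and 239 against 181 for pan-leukocyte genes, and 720 and 790 against 625 for epithelial markers. For the first 3 of these sums, wild type lay between the depleted arrays, and for the epithelial markers it lay below both. The brightest genes weigh most in such sums. In the B cell sum Ighm read 9.72 and 27.0 against 13.1, while 6 of the 11 markers were lower than wild type in both depleted arrays. In the sum of the members Gzma read 31.2 and 35.6 against 34.4. No gene of these lists was listed at 0. The part of leukocyte content, of the 3' to 5' ratios or of sex in the differences of the members was not tested.

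**Figure D4:**
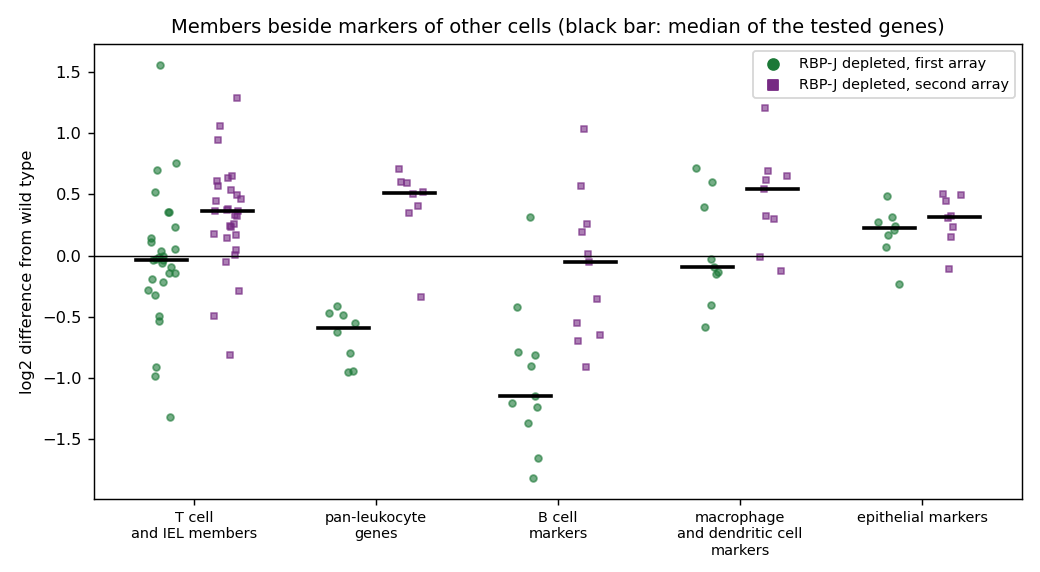
Log2 difference from wild type of each tested gene in 5 lists, for the first (circles, left) and second (squares, right) RBP-J depleted array, with a black bar at the median. The T cell and intraepithelial lymphocyte (IEL) members lie around -0.03 and 0.36, and all 8 pan-leukocyte genes are below wild type in the first array.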

How the data were processed

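Biotinylated cRNA of 3 samples was hybridised to Affymetrix arrays, per the labels' protocols. The authors summarised each probe set with MAS5 as a linear intensity, per the submitters' processing notes. Each array has a median of exactly 1, and detection calls were not used here. Names came from the platform annotation, and probe sets with several symbols or none were left out. Of 45101 probe sets, 18193 genes were represented by their brightest probe set, and 11885 with a mean at or above 0.598, the 40th percentile, were tested. Values were used as log2(value + 0.248), the pseudocount being the 25th percentile, in R 4.3.3 with limma 3.58.1 (lmFit, eBayes with trend), adjusted by Benjamini-Hochberg over all genes. The code was also run on simulated data. Planted changes there were wider than any difference of a member, and the noise was smaller than between the depleted arrays. That run therefore gives no measure of power at the sizes seen here. With 1 residual degree of freedom and 600 prior ones, the fit takes the single wild type array to vary as the depleted ones do. For the same reason, each SE is set almost wholly by the intensity trend over all genes. P-values therefore measure at most the spread between the 2 depleted arrays, taken over all genes. They hold no spread between wild type arrays, and the small number of samples limits precision.

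The members, the 10 comparison lists and the roles were chosen with earlier results of these data known. Values in every array were given for receptor genes and for called or 2-fold members. They were also given for the members with the largest smaller difference or largest gap in each role. The same was planned for up to 3 genes of each comparison list, of which some were left out. None is printed for the pan-leukocyte list or the macrophage and dendritic cell list. The remaining members were added so that each is accounted for. Alternatives covered pseudocount, filter, scaling, probe set rule, variance model and each depleted array.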

Additional observations from a re-analysis of the deposited data

How the results depend on the processing

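No member was called under any of the 8 alternatives with a test, and the limma adjusted p of Cd96 ran from 0.66 to 1 over the main setting and those that kept the gene. No paired analysis was possible because the label of the single wild type array gives no replicate number that a depleted array could share. The count of genes called, 10 here, was 1 without an intensity filter, 6 when that filter was at the 60th percentile, 4 after quantile normalization, 4 when arrays shared their 75th percentile and 6 centred on the median of the genes tested, a scaling chosen after seeing the data. Members 2-fold higher in both arrays numbered 0 with a pseudocount of 1 and 0 with the filter at the 60th percentile, which drops Cd96. That filter left 14 members, with 5 higher and 0 lower in both. With the mean of all probe sets 7 members were lower in both. Without replicate 1 or replicate 2 of the depleted group, members above wild type numbered 25 or 11 and members below it 4 or 18, those 2-fold higher 2 or 1 and those 2-fold lower 0 or 1, and the median was 0.36 or -0.03, values with no test. Of 217 values of single members under the alternatives with a test, 11, from 5 genes, turned sign, and none of these genes was called. The filter settings and the variance model leave a member's difference unchanged, so their values, counted among the 217, could not turn sign. Runs without a depleted array are not among the 217. In each of the 14 members on opposite sides of wild type, 1 of those runs turned the sign.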
